A study of Rattus norvegicus with 12 samples.

Results

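The genes described here are 9 receptors and surface markers of liver endothelium: Kdr, Tek, S1pr1, Pecam1, Cdh5, Flt1, Stab2, Lyve1 and Tie1. They were found as the probe sets that the array's annotation assigns to these symbols alone. This gave 13 of 31042 probe sets, for 8 of the 9 genes. No probe set of the annotation used here was assigned to Cdh5, so the adherens junction cadherin of endothelium has no value. Of the 13 probe sets, 11 passed the filter on dim values and 2 did not, and each of the 8 genes kept at least 1 probe set. The study measured liver RNA of 12 male Sprague-Dawley rats aged 10 weeks, 3 rats in each of 4 groups. By gavage every 24 h over 72 h, rats received myclobutanil (300 mg/kg/day), propiconazole (300 mg/kg/day) or triadimefon (175 mg/kg/day), which are triazole fungicides, and the control rats are labelled only as controls, with no agent named. RNA of every liver was hybridised to a separate Affymetrix rat expression array, with no pooling.

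Liver sinusoids are lined by a fenestrated endothelium that lacks a continuous basement membrane and clears macromolecules from portal blood. Its growth and survival depend on vascular endothelial growth factor, which signals mainly through the receptor encoded by Kdr, while the receptor encoded by Flt1 binds the same ligand tightly and signals weakly. Angiopoietins act through the receptor encoded by Tek, with Tie1 as its partner, and sphingosine 1-phosphate carried in plasma holds endothelial junctions closed through the receptor encoded by S1pr1. Stab2 and Lyve1 encode hyaluronan receptors of sinusoidal endothelium, and Pecam1 encodes an adhesion molecule of endothelium that platelets and leukocytes carry as well. The tissue was whole liver, so each value sums all cell types, and fewer endothelial cells cannot be told apart from less RNA per endothelial cell.

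Values are the deposited scores per probe set after quantile normalization. They behave like a logarithm whose base is not stated, so differences are given in score units and not as fold changes. As a guide to the scale, the abundant spike-in cre exceeded the scarce spike-in bioB by a median of 2.61 units. The array of myclobutanil replicate 1 stood apart, with a median deposited score of 0.157 where the other 11 arrays had 0.0182 to 0.0552, and a median r of 0.927 with the rest where they had 0.962 to 0.982. RNA quality, read as the score of the 3' GAPDH probe set less that of the 5' one, was 0.624 ± 0.128 in myclobutanil, 0.434 ± 0.106 in propiconazole, 0.587 ± 0.212 in triadimefon and 0.659 ± 0.252 in control livers (SD, n = 3 each). The same measure on beta-actin was 0.807 ± 0.145, 0.636 ± 0.0925, 0.838 ± 0.200 and 0.682 ± 0.202 in that order. Control livers thus stood highest by GAPDH but below myclobutanil and triadimefon livers by beta-actin. Of the hepatocyte markers, 9 of 10 had an annotated probe set that passed the filter on dim values, and of the endothelial markers, the 9 genes included, 16 of 19 had one.

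Among the 8 measured genes, Kdr, Tek and S1pr1 were lower in all 9 triazole-treated livers than in all 3 control livers, and the other 5 genes were not, while 5% of all genes tested were. These 3 genes fell with propiconazole, and Kdr alone of the 8 fell with myclobutanil, by limma at a Benjamini-Hochberg adjusted p under 0.05 over the 21730 probe sets tested. No gene of the set passed in triadimefon livers, and no gene of the set rose with any compound. Over all 11843 genes tested, 0.684% passed as lower with propiconazole, 0.979% with myclobutanil and 0.279% with triadimefon, and 0.996%, 1.28% and 0.557% passed as higher. The share of the set was 3 of 8 with propiconazole (37.5%), 1 of 8 with myclobutanil (12.5%) and 0 of 8 with triadimefon. The set was chosen with earlier results of these data known, so its shares describe it and are no test against all genes. At an unadjusted p under 0.05, 3 genes were lower and 0 higher in propiconazole livers, 4 lower and 0 higher in myclobutanil livers, and 3 lower and 0 higher in triadimefon livers. No share of all genes at that unadjusted p is given, so these counts and those below have no background beside them. Taken group by group, 4 of the 8 genes lay below control without overlap in myclobutanil livers, 4 in propiconazole livers and 3 in triadimefon livers, against 14.2%, 16.9% and 17.2% of all genes tested. In myclobutanil livers 1 of the 4 in both counts is Flt1, read from its brightest probe set, and another Flt1 probe set went the other way. The median difference of the 8 genes was -0.12, -0.14 and -0.056 in the same order, against -0.013, -0.013 and -0.016 over all genes.

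**Figure D1:**
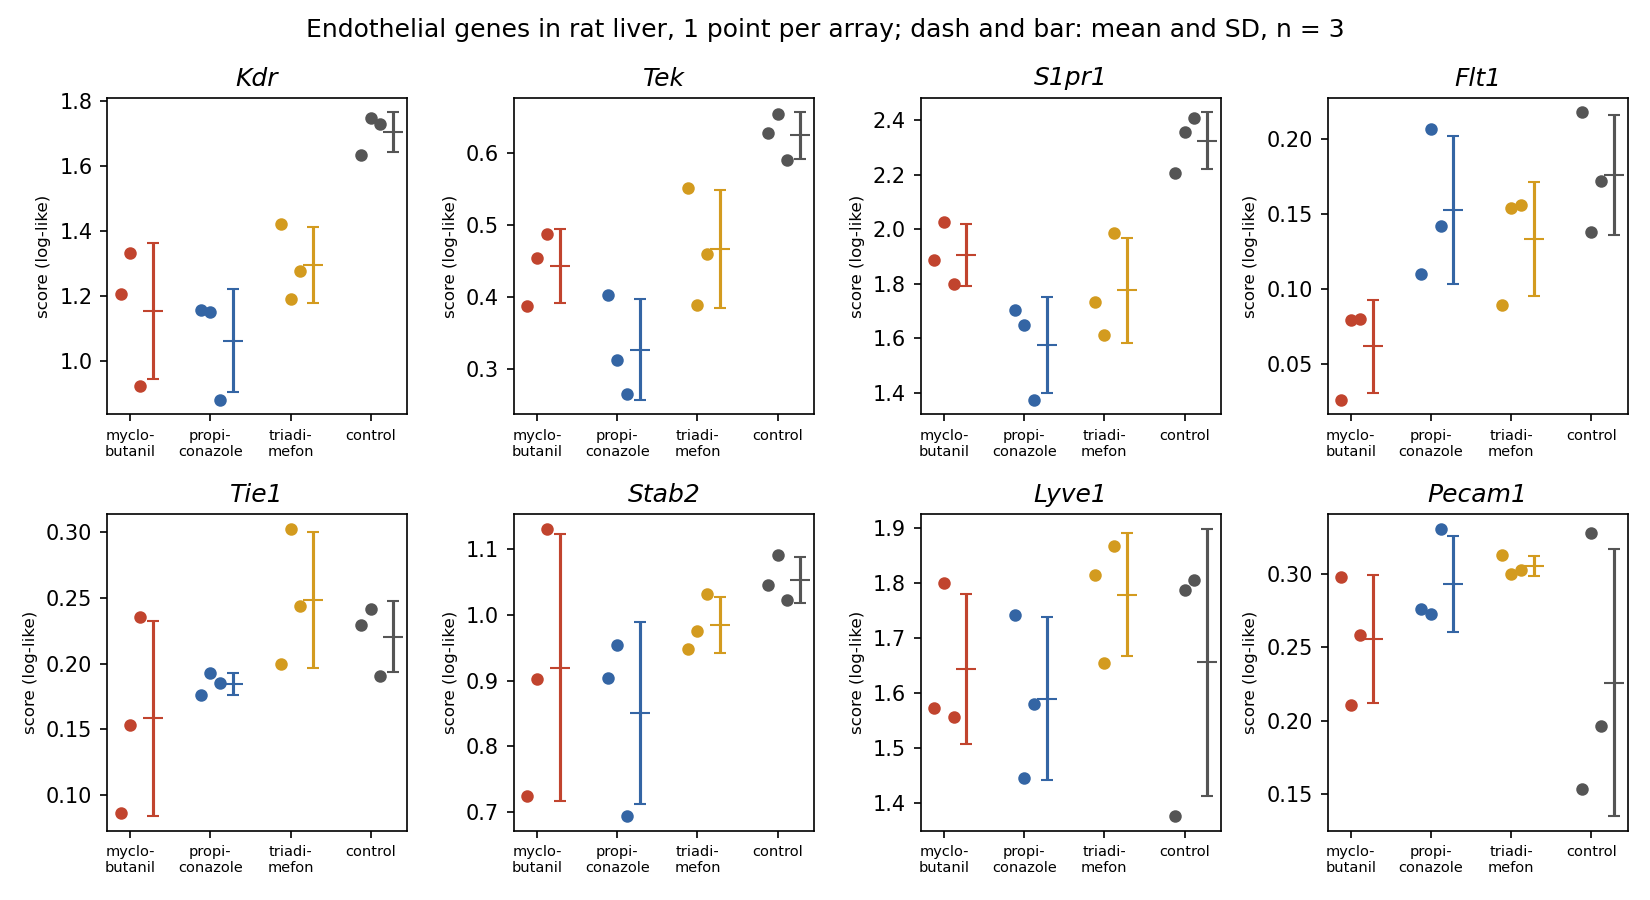
Scores (log-like units) of the 8 measured endothelial genes in liver, with 1 point per array and the mean ± SD (n = 3) beside each group of myclobutanil, propiconazole, triadimefon and control arrays. For Kdr, Tek and S1pr1 the 9 treated arrays lie below the 3 control arrays, while the groups overlap for Pecam1 and Lyve1.

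Kdr, the main signalling receptor for vascular endothelial growth factor, scored 1.21, 1.33 and 0.924 in the myclobutanil livers, 1.16, 1.15 and 0.881 in the propiconazole livers and 1.42, 1.19 and 1.28 in the triadimefon livers, against 1.63, 1.75 and 1.73 in the control livers. The highest treated liver, a triadimefon one, lay below the lowest control liver, so no treated group overlapped control. Kdr fell by 0.55 ± 0.11 with myclobutanil (limma estimate ± SE, n = 3 arrays per group, adjusted p = 0.0407). It fell by 0.64 ± 0.11 with propiconazole (limma adjusted p = 0.0268). In triadimefon livers the difference from control was -0.41 ± 0.11 and did not pass (limma adjusted p = 0.151). With propiconazole only 0.203% of the genes tested had a difference as low as that of Kdr or lower, and with myclobutanil 0.726% had.

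The myclobutanil call for Kdr ended without myclobutanil replicate 3 (-0.44, limma adjusted p = 0.0948) and without any 1 of the 3 control arrays, with limma adjusted p of 0.0993, 0.115 and 0.159 for control replicates 1, 2 and 3. It also ended without propiconazole replicate 1 or 2 or any triadimefon array (limma adjusted p from 0.0536 to 0.0682). Those arrays enter the quantile normalization and the estimate of the spread, and the difference stayed between -0.5521 and -0.5484. The call ended as well in a fit of the myclobutanil and control arrays alone (limma adjusted p = 0.196) and with no filter on dim values (0.05145). Without myclobutanil replicate 1, the array that stood apart, it held (-0.57, limma adjusted p = 0.0434). The propiconazole call for Kdr held in 7 of 12 fits with 1 array left out, and ended without propiconazole replicate 1 or 3 and without any 1 control array (limma adjusted p from 0.0678 to 0.117).

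S1pr1, the sphingosine 1-phosphate receptor that tightens endothelial junctions, scored 1.89, 2.03 and 1.80 in the myclobutanil livers, 1.70, 1.65 and 1.37 in the propiconazole livers and 1.73, 1.61 and 1.99 in the triadimefon livers, against 2.21, 2.36 and 2.41 in the control livers. Every treated liver lay below every control liver, and the 3 propiconazole livers also lay below the 3 myclobutanil livers. S1pr1 fell by 0.75 ± 0.12 with propiconazole (limma adjusted p = 0.0171), a difference that 0.0929% of the genes tested matched or exceeded in depth. The differences of -0.42 ± 0.12 with myclobutanil and -0.55 ± 0.12 with triadimefon did not pass (limma adjusted p = 0.0934 and 0.069). The propiconazole call held in 9 of 12 fits with 1 array left out, and ended without propiconazole replicate 3 (limma adjusted p = 0.0732), control replicate 2 (0.0869) or control replicate 3 (0.0884).

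Tek, the receptor for angiopoietins, scored 0.387, 0.454 and 0.487 in the myclobutanil livers, 0.402, 0.312 and 0.265 in the propiconazole livers and 0.552, 0.389 and 0.460 in the triadimefon livers, against 0.627, 0.655 and 0.591 in the control livers. The control range was narrow and lay above every treated liver. Tek fell by 0.30 ± 0.055 with propiconazole (limma adjusted p = 0.0283), where 2.37% of the genes tested were as low. The differences of -0.18 ± 0.055 with myclobutanil and -0.16 ± 0.055 with triadimefon did not pass (limma adjusted p = 0.11 and 0.248). Of the 3 propiconazole calls this one was lost most often: it held in 5 of 12 fits with 1 array left out and ended without any 1 propiconazole array, any 1 control array or triadimefon replicate 3 (limma adjusted p from 0.0542 to 0.132). It also ended when arrays were centred on their medians in place of quantile normalization (-0.26, limma adjusted p = 0.0868).

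**Figure D2:**
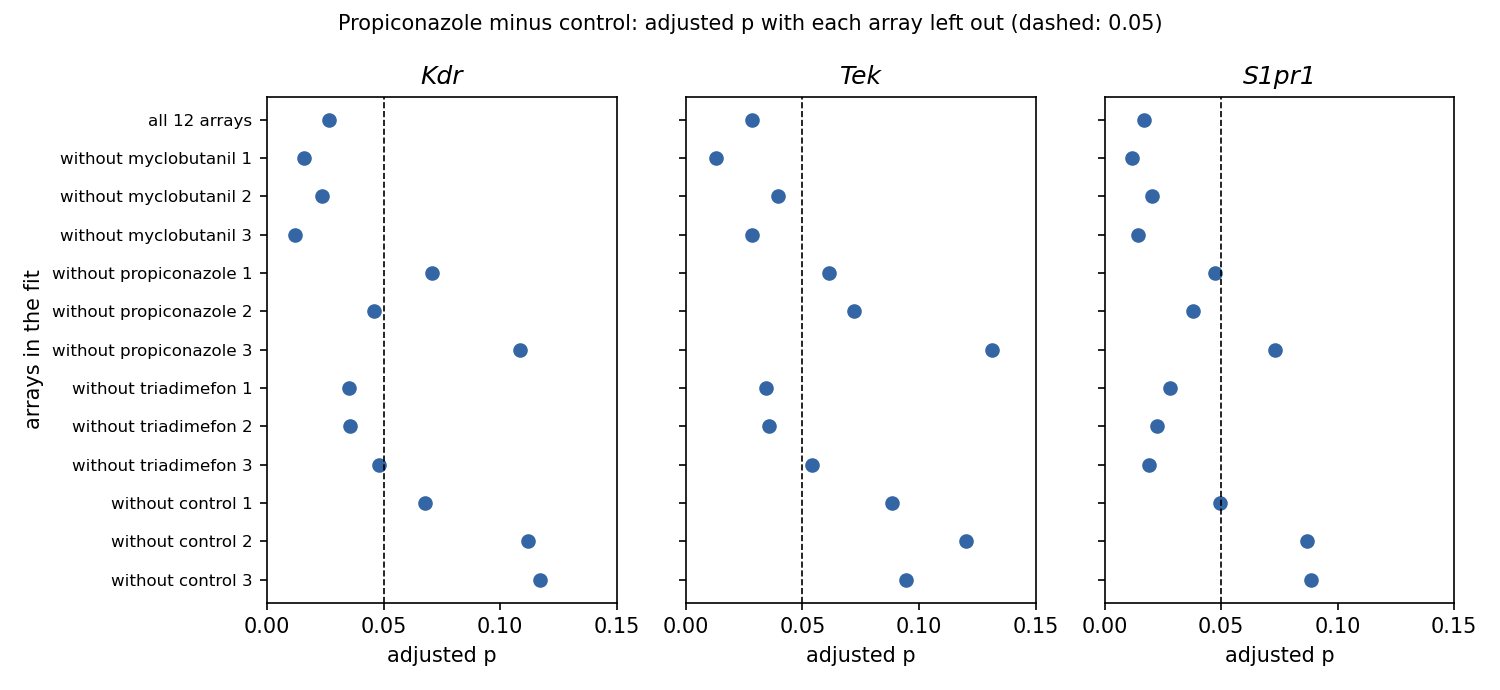
Adjusted p of the propiconazole minus control difference (x axis) for Kdr, Tek and S1pr1, in the fit of all 12 arrays and in the 12 fits with 1 array left out (y axis), with 0.05 dashed. Leaving out propiconazole replicate 3, control replicate 2 or control replicate 3 puts all 3 genes past 0.05.

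The mean of the 3 treated groups was also set against control, which uses 9 treated arrays at unequal doses. Kdr fell by 0.53 ± 0.093, S1pr1 by 0.57 ± 0.098 and Tek by 0.21 ± 0.045 in this comparison (limma adjusted p = 0.0163, 0.0143 and 0.0337). The other 5 genes did not pass, and 1.43% of all genes tested passed as lower. The median difference of the 8 genes was -0.098, against -0.012 over all genes. Without control replicate 2 or control replicate 3 none of the 8 passed (limma, where 3 of 8 stood lower at an unadjusted p under 0.05 in the fit of all arrays), and without control replicate 1 S1pr1 alone passed. The Tek call held in 6 of 12 fits with 1 array left out: it ended without any 1 control array (limma adjusted p from 0.119 to 0.129), propiconazole replicate 3 (0.0608), triadimefon replicate 2 (0.0603) or triadimefon replicate 3 (0.0637). It also ended with median centring (-0.18, limma adjusted p = 0.0997) and on the deposited values (-0.18, 0.063). In the F test of the 4 groups S1pr1 alone of the 8 passed (limma adjusted p = 0.0432), with Kdr at 0.058 and Tek at 0.0869, while 1.32% of all genes tested passed. The 3 comparisons with control share the same 3 control arrays, so their differences are not independent of each other.

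Promoters of 2 genes that fell, Kdr and S1pr1, and of 1 that did not pass with any compound, Lyve1, are given here from the RefSeq table of the GRCr8 assembly, which held 6 of the 9 genes (Kdr, S1pr1, Flt1, Stab2, Lyve1 and Tie1). Each runs from 250 bases before to 50 bases after the gene's start, 5' to 3' on the gene's strand. Capitals mark matches on either strand to motifs of factors known from endothelial genes: CCGGAAG for ETS factors, CAGGAAG likewise for ETS factors, CACCC for KLF factors and TGATAA for GATA factors, and to TATAAA of the core promoter. No window shown held more than 1 match. The Kdr promoter lies at chr14:32571813-32572112 on the plus strand, that of S1pr1 at chr2:206314021-206314320 on the minus strand and that of Lyve1 at chr1:174410928-174411227 on the minus strand.
Kdr: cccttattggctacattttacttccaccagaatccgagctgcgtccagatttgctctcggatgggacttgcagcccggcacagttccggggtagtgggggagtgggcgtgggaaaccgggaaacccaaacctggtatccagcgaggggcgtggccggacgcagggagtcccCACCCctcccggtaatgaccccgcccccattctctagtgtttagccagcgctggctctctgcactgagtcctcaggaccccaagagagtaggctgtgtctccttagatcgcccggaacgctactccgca
S1pr1: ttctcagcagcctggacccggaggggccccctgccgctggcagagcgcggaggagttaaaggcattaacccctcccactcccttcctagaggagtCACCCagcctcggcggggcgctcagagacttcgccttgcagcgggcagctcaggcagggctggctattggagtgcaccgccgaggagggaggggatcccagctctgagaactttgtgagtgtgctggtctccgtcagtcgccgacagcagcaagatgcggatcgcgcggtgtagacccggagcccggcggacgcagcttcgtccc
Lyve1: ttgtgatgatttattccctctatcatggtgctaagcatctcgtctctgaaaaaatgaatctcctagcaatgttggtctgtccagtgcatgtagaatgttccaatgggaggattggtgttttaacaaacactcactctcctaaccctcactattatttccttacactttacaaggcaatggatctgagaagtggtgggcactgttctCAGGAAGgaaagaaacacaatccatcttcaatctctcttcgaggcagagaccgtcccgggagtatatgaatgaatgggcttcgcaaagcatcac

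The Kdr and S1pr1 windows each held 1 CACCC match, 79 and 155 bases before the start, and no match to the other motifs. The Lyve1 window held 1 CAGGAAG match 44 bases before the start and no CACCC match. CACCC was also found in the windows of Flt1 (2 matches), Tie1 (4) and Stab2 (1), and in 54.9% of the 33469 promoters of the table, beside 5 of the 6 windows matched here. CAGGAAG was found in 12.5% of promoters, CCGGAAG in 8.75%, TGATAA in 9.03% and TATAAA in 14.2%. GC content was 61% in the Kdr window, 66.3% in that of S1pr1 and 43.3% in that of Lyve1, with a median of 51.7% over all promoters. These matches describe the letters of the windows and show no binding.

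Flt1, the tight-binding receptor for vascular endothelial growth factor, scored 0.026, 0.0793 and 0.0796 in the myclobutanil livers, against 0.218, 0.138 and 0.172 in the control livers, on the probe set with the highest mean. The myclobutanil livers lay below the control livers and below the propiconazole livers, which scored 0.110, 0.206 and 0.142, but the difference from control of -0.11 ± 0.038 did not pass (limma adjusted p = 0.13). Differences from control were -0.023 ± 0.038 with propiconazole and -0.043 ± 0.038 with triadimefon, where the livers scored 0.0894, 0.154 and 0.156. Another probe set of Flt1, 1377113_at, went the other way, with scores of 0.501, -0.0282 and 0.118 in the myclobutanil livers, -0.0017, -0.0179 and 0.0217 in the propiconazole livers and 0.0623, 0.141 and 0.0893 in the triadimefon livers, against -0.117, -0.0713 and -0.180 in the control livers. The 0.501 came from the array that stood apart. On that probe set every treated liver lay above every control liver, with differences of 0.32 ± 0.10, 0.12 ± 0.10 and 0.22 ± 0.10 that did not pass (limma adjusted p = 0.114, 0.626 and 0.369). No direction is therefore given for Flt1.

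**Figure D3:**
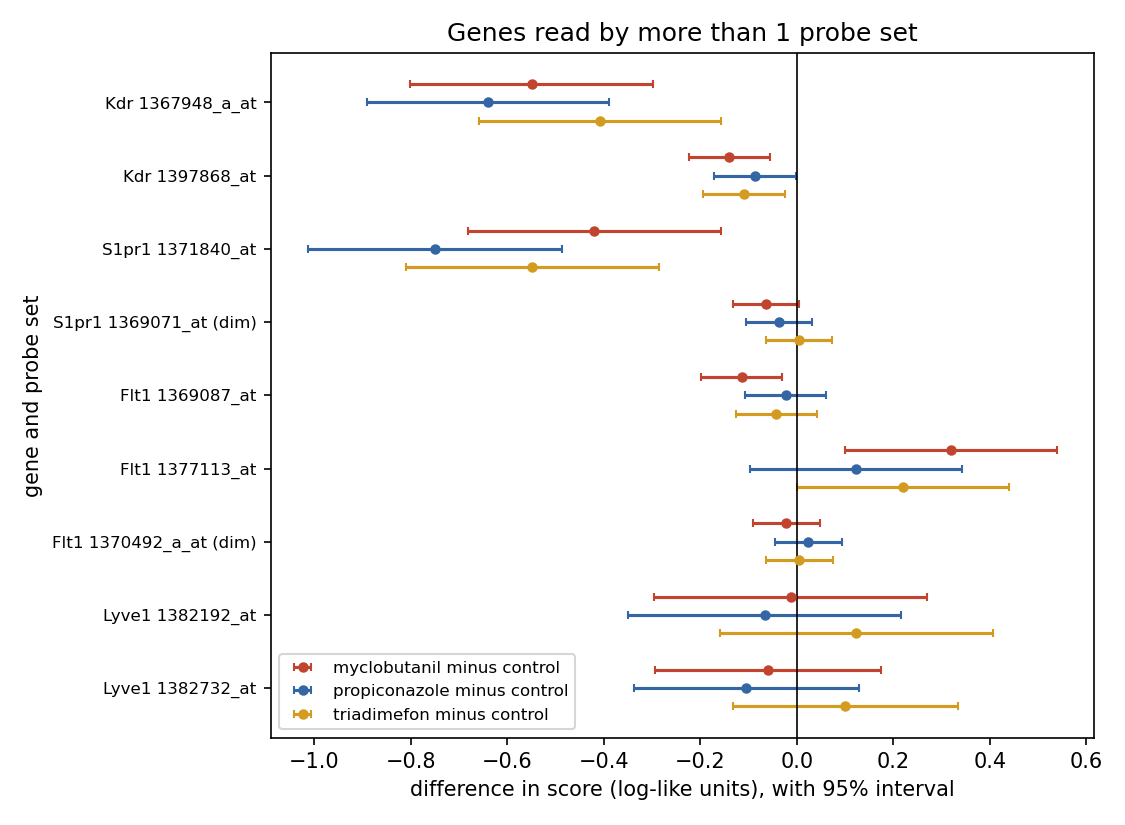
Difference in score from control (x axis, log-like units, with 95% interval) for the genes read by more than 1 probe set (y axis), for each compound. Both Kdr probe sets lie below 0, the 2 Lyve1 probe sets lie near each other, and 2 Flt1 probe sets lie on opposite sides of 0.

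Kdr and S1pr1 had a second probe set too. The second Kdr probe set, 1397868_at, scored 0.06, 0.0645 and 0.0055 in the myclobutanil livers, 0.113, 0.0579 and 0.117 in the propiconazole livers and 0.0446, 0.123 and 0.0536 in the triadimefon livers, against 0.247, 0.148 and 0.154 in the control livers. Here as well every treated liver lay below every control liver. Its differences of -0.14 ± 0.039, -0.087 ± 0.039 and -0.11 ± 0.039 for myclobutanil, propiconazole and triadimefon did not pass (limma adjusted p = 0.0855, 0.331 and 0.248). The second S1pr1 probe set, 1369071_at, was dim, with scores between -0.201 and -0.0899 in the treated livers and between -0.137 and -0.0751 in the control livers. It overlapped control in every group and was left out of the test by the filter, so the fall of S1pr1 rests on 1371840_at.

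Tie1, the partner of the Tek receptor, scored 0.0862, 0.153 and 0.235 in the myclobutanil livers, 0.176, 0.192 and 0.185 in the propiconazole livers and 0.200, 0.303 and 0.244 in the triadimefon livers, against 0.229, 0.242 and 0.190 in the control livers. Each treated group overlapped control, and the 95% intervals of the differences were -0.16 to 0.033, -0.13 to 0.059 and -0.067 to 0.12. The propiconazole interval of Tek ran from -0.42 to -0.18 and did not meet that of Tie1, although the difference between the 2 genes was not tested.

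Of the hyaluronan receptors, Stab2 scored 0.725, 0.903 and 1.13 in the myclobutanil livers, 0.904, 0.954 and 0.694 in the propiconazole livers and 0.948, 0.976 and 1.03 in the triadimefon livers, against 1.05, 1.09 and 1.02 in the control livers. The propiconazole livers lay below the control livers and the other groups overlapped them. Stab2 did not pass, with differences of -0.13 ± 0.099, -0.20 ± 0.099 and -0.069 ± 0.099 for myclobutanil, propiconazole and triadimefon (limma adjusted p = 0.452, 0.382 and 0.822). Lyve1 scored 1.57, 1.80 and 1.56 in the myclobutanil livers, 1.74, 1.45 and 1.58 in the propiconazole livers and 1.82, 1.65 and 1.87 in the triadimefon livers, against 1.38, 1.79 and 1.81 in the control livers. Control replicate 1 was the lowest of the 12 arrays, and the SD of the control livers, 0.243, was wider than any difference from control of this gene. Lyve1 differed from control by -0.013 ± 0.13, -0.067 ± 0.13 and 0.12 ± 0.13, and its second probe set, 1382732_at, by -0.06 ± 0.11, -0.10 ± 0.11 and 0.10 ± 0.11, none past the test.

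Pecam1, the adhesion molecule of the junctions, had a difference from control above 0 with each compound. It scored 0.298, 0.211 and 0.259 in the myclobutanil livers, 0.276, 0.273 and 0.331 in the propiconazole livers and 0.313, 0.3001 and 0.303 in the triadimefon livers, against 0.154, 0.328 and 0.197 in the control livers. The groups overlapped and none of the differences, 0.03 ± 0.048, 0.067 ± 0.048 and 0.079 ± 0.048, passed (limma adjusted p = 0.742, 0.564 and 0.515). The sign of the myclobutanil difference turned with array weights (-0.033) and without control replicate 1 (-0.0066).

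**Figure D4:**
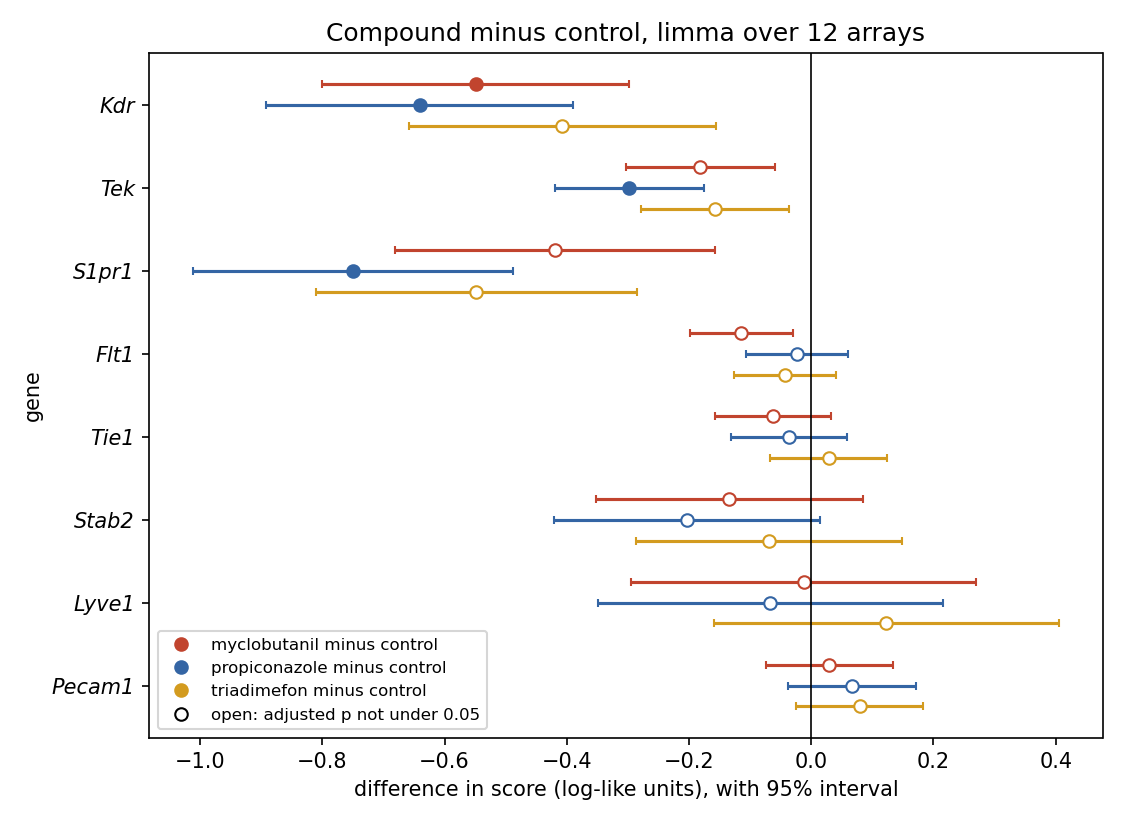
Difference in score from control (x axis, log-like units, with 95% interval) for the 8 measured genes (y axis) and each compound, with filled points where the adjusted p was under 0.05. Kdr is filled for myclobutanil and propiconazole, Tek and S1pr1 for propiconazole only, and no other gene is filled.

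Myclobutanil and propiconazole, given at the same dose, were compared directly. Both carry a triazole ring, and myclobutanil has a nitrile and a butyl chain where propiconazole has a dioxolane ring and a propyl chain. None of the 8 genes passed (at an unadjusted p under 0.05 in limma 1 was higher, S1pr1, and 1 lower, Flt1 on its brightest probe set), and limma called 0% of all genes tested. S1pr1 was higher in every myclobutanil liver than in every propiconazole liver, with a difference of 0.33 (95% interval 0.068 to 0.59, limma adjusted p = 0.444). The 2 tested Flt1 probe sets again had opposite signs, with differences of -0.091 (95% interval -0.17 to -0.0074, limma adjusted p = 0.481) and 0.20 (95% interval -0.023 to 0.42, limma adjusted p = 0.514 on 1377113_at). Of all genes tested, 14.4% had groups that did not overlap in this comparison. The interval of the Kdr difference ran from -0.16 to 0.34 and that of Tek from -0.0054 to 0.24, so these data do not show that the 2 compounds act alike on these genes. Triadimefon was given at a lower dose, and its values stand beside the others with no test between them.

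Genes of the same pathways were taken from lists, and the 8 genes are counted in them. Of 9 tested genes for vascular endothelial growth factors and their receptors, Kdr was the one that fell with myclobutanil and with propiconazole, and none passed with triadimefon. The growth factor gene Vegfa stood at -0.066 ± 0.097, -0.14 ± 0.097 and -0.015 ± 0.097 with myclobutanil, propiconazole and triadimefon, and Vegfb, another ligand gene, at 0.23 ± 0.094, 0.016 ± 0.094 and 0.16 ± 0.094. The coreceptor gene Nrp1, which like Vegfa was chosen after its values were seen, stood at -0.37 ± 0.084 with propiconazole (limma adjusted p = 0.0584) and at -0.22 ± 0.084 and -0.13 ± 0.084 with myclobutanil and triadimefon. The median of the list was -0.066, -0.057 and -0.043 for the 3 compounds in that order, against -0.013, -0.013 and -0.016 over all genes.

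Of 4 tested genes of the angiopoietin and Tie axis, Tek alone fell, with propiconazole. Ptprb, an endothelial phosphatase that acts on the Tek receptor, stood at -0.37 ± 0.15 with myclobutanil (limma adjusted p = 0.207), and the ligand gene Angpt4 at -0.043 ± 0.024 with triadimefon (0.491 by the same test). Of 8 tested sphingosine phosphate genes, S1pr1 alone fell, with propiconazole. Apom, which encodes the plasma carrier of sphingosine 1-phosphate made by hepatocytes, stood at -0.30 ± 0.13 with myclobutanil (limma adjusted p = 0.217), and the sphingosine kinase gene Sphk2 at -0.14 ± 0.071 with triadimefon (limma adjusted p = 0.436).

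Of 12 tested scavenger and sinusoidal receptor genes and their regulators, Maf, a transcription factor gene expressed in endothelium and macrophages, fell by 0.53 ± 0.11 with myclobutanil (limma adjusted p = 0.0465), and none passed with propiconazole or triadimefon. Maf stood at -0.31 ± 0.11 with propiconazole and -0.30 ± 0.11 with triadimefon. Whether its myclobutanil call held in other settings is not given here. The deoxyribonuclease gene Dnase1l3 stood at -0.41 ± 0.099 with myclobutanil (limma adjusted p = 0.06615) and -0.28 ± 0.099 with triadimefon. Its scores were lower in every treated liver than in every control liver. Members of this list also stood above control: Ctsl, which encodes a lysosomal protease, at 0.28 ± 0.099 with propiconazole (limma adjusted p = 0.216), and the lectin gene Clec4m, chosen after its values were seen, at 0.28 ± 0.092 with myclobutanil (limma adjusted p = 0.121). None of the 11 tested junction and adhesion genes passed with any compound (1 lower and 0 higher at an unadjusted p under 0.05 in limma with myclobutanil, the same with propiconazole, and 0 with triadimefon). In that list the sialomucin gene Emcn stood at -0.23 ± 0.078 with propiconazole, Icam2 at -0.19 ± 0.075 with myclobutanil and Mcam at 0.12 ± 0.057 with triadimefon. The median of the junction list was 0.0019, -0.0045 and 0.028 for myclobutanil, propiconazole and triadimefon.

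None of 24 endothelial regulators and vasoactive genes passed (4 lower and 0 higher at an unadjusted p under 0.05 in limma with myclobutanil, 2 and 1 with propiconazole, 2 and 2 with triadimefon). The endothelial transcription factor gene Erg stood at -0.19 ± 0.052 with myclobutanil and -0.14 ± 0.052 with propiconazole (limma adjusted p = 0.0845 and 0.245), and Lmo2 at -0.25 ± 0.073 with myclobutanil. Thbd, the thrombomodulin gene, stood at 0.30 ± 0.10 with propiconazole and 0.37 ± 0.10 with triadimefon (limma adjusted p = 0.204 and 0.155). None of 13 Wnt, Bmp and Notch genes passed (2 lower and 1 higher at an unadjusted p under 0.05 in limma with myclobutanil, 1 and 0 with propiconazole, 3 and 1 with triadimefon). Bmp2 stood at -0.37 ± 0.11 and Hgf at 0.13 ± 0.041 with myclobutanil. With propiconazole the 1 lower gene was Axin2, at -0.11 ± 0.046, and Bmp6 stood at -0.16 ± 0.073. With triadimefon Hgf stood at 0.12 ± 0.041 and Axin2 at -0.12 ± 0.046.

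The 8 endothelial markers outside the set that could be tested (Stab1, Fcgr2b, Gpr182, Eng, Egfl7, Ramp2, Vwf and Emcn) did not fall or rise with any compound by limma. Their differences ran from -0.33 to 0.22 with myclobutanil, from -0.23 to 0.083 with propiconazole and from -0.18 to 0.085 with triadimefon, with 5, 6 and 5 of 8 below 0. Their summed score was 3.84 to 4.38 in myclobutanil, 3.51 to 3.81 in propiconazole and 3.82 to 4.11 in triadimefon livers, against 3.87 to 4.55 in control livers. The propiconazole livers lay below the control livers and the other groups overlapped them. The 8 genes of the set summed to 6.19 to 6.96, 5.45 to 6.47 and 6.58 to 7.33 in the same treated groups, against 7.49 to 8.35 in control livers, with no overlap. That sum holds Kdr, Tek and S1pr1, which lay below control in every treated liver. The other 5 genes summed to 2.708 to 3.262 in myclobutanil, 2.932 to 3.208 in propiconazole and 3.365 to 3.603 in triadimefon livers. Control livers had 3.022 to 3.588, and each treated group overlapped them. Kdr, Tek and S1pr1 were left out of this sum after their values were seen, so the overlap is no test of the other 5 genes.

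**Figure D5:**
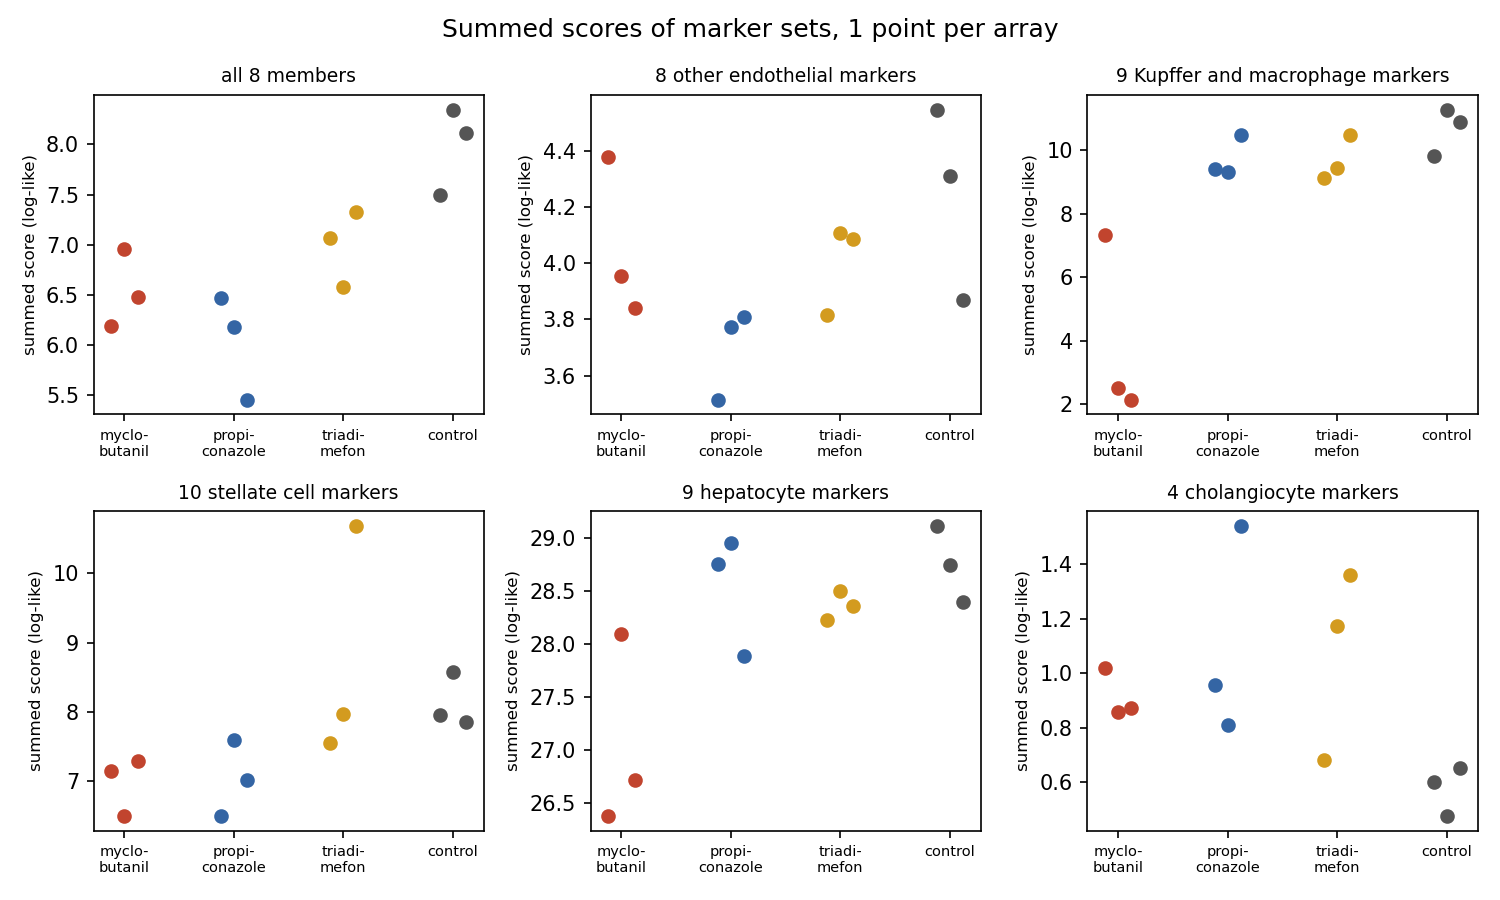
Summed score (y axis, log-like units) of the 8 measured genes, of 8 other endothelial markers and of Kupffer cell, stellate cell, hepatocyte and cholangiocyte markers, with 1 point per array in each group. The sum of the 8 measured genes lies lower in every treated group (5.45 to 7.33) than in control (7.49 to 8.35). That sum holds Kdr, Tek and S1pr1, and the other endothelial markers lie lower with propiconazole alone.

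Markers of other liver cells also differed from control in some groups. In myclobutanil livers 5 of 9 Kupffer cell and macrophage markers fell, among them C1qa by 1.0 ± 0.16 and Clec4f, a lectin of rodent Kupffer cells, by 1.35 ± 0.22 (limma adjusted p = 0.0133 and 0.0175), and the summed score of the list was 2.13 to 7.33, against 9.81 to 11.3 in control livers. All 9 passed without myclobutanil replicate 1, and none passed without any 1 of the control arrays or in a fit of the myclobutanil and control arrays alone. The same list did not pass for any gene with propiconazole or triadimefon (0 of 9 at an unadjusted p under 0.05 in limma), with sums of 9.31 to 10.5 and 9.14 to 10.5. Of 10 stellate cell markers, Lrat, which makes retinyl esters, fell by 0.36 ± 0.069 with myclobutanil and by 0.40 ± 0.069 with propiconazole (limma adjusted p = 0.0322 and 0.0231) and stood at -0.15 ± 0.069 with triadimefon. The stellate list summed to 6.49 to 7.29 in myclobutanil, 6.49 to 7.59 in propiconazole and 7.55 to 10.7 in triadimefon livers, against 7.85 to 8.57 in control livers.

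Of 9 hepatocyte markers, Cyp2e1 and Hal fell with myclobutanil by 0.59 ± 0.11 and 0.58 ± 0.12 (limma adjusted p = 0.0253 and 0.0442), and Apoa1 rose with propiconazole by 0.49 ± 0.089 (limma adjusted p = 0.0278). Whether the calls of Lrat, Cyp2e1, Hal and Apoa1 held in other settings is not given here. The hepatocyte list summed to 26.4 to 28.1 in myclobutanil, 27.9 to 29.0 in propiconazole and 28.2 to 28.5 in triadimefon livers, against 28.4 to 29.1 in control livers. None of 4 lymphatic, 4 cholangiocyte, 7 leukocyte and blood or 4 platelet markers passed with any compound in limma. At an unadjusted p under 0.05, 1 cholangiocyte marker was higher and 1 lower with myclobutanil, as were 1 and 1 leukocyte and blood markers, and 1 platelet marker was lower. With propiconazole 1 cholangiocyte marker was higher, with triadimefon 1 cholangiocyte marker was higher and 1 platelet marker was higher and 1 lower, and the count was 0 for the lymphatic list with each compound. The cholangiocyte list summed to 0.857 to 1.02, 0.81 to 1.54 and 0.684 to 1.36 in myclobutanil, propiconazole and triadimefon livers, against 0.477 to 0.653 in control livers. Most of this lay in Epcam, which encodes an epithelial adhesion molecule and stood at 0.42 ± 0.15, 0.52 ± 0.15 and 0.39 ± 0.15, while the keratin gene Krt7 stood at -0.09, -0.029 and -0.012 and the list's median at 0.0052, 0.019 and 0.059. The part of these other cells in the falls of Kdr, Tek and S1pr1 was not tested.

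The genes whose scores were most like those of each of the 3 genes over the 12 arrays were picked by Pearson's r among 11843 genes, so r is given as a description with no p, and treatment is shared by all the points. For Kdr these were Cd81 (r = 0.966), Cnnm3 (0.96) and Tbc1d23 (0.951), with Spearman's rho of 0.965, 0.965 and 0.923. For S1pr1 they were Arsa (r = 0.934), Cnnm3 (0.916) and Mfsd6 (0.915), with rho of 0.888, 0.881 and 0.839, and for Tek Casd1 (r = 0.963), Xpo7 (0.955) and Rfc1 (0.951), with rho of 0.951, 0.923 and 0.965. None of the picked genes was in the pathway lists. After the group means were taken off, r with Kdr was 0.927 for Cd81, 0.931 for Cnnm3 and 0.72 for Tbc1d23, and r with S1pr1 was 0.569 for Arsa, 0.776 for Cnnm3 and 0.666 for Mfsd6. For Tek the same measure was 0.855, 0.873 and 0.772 for Casd1, Xpo7 and Rfc1. By this measure many other genes were closer: Casd1, Xpo7 and Rfc1 ranked 104, 62 and 352 for Tek among the 11843 genes. Arsa, Cnnm3 and Mfsd6 ranked 300, 38 and 128 for S1pr1. For Kdr, Cd81 and Cnnm3 ranked 6 and 5, and Tbc1d23 ranked 212.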

How the data were processed

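RNA of 12 individual rat livers was measured on Affymetrix arrays. The deposited values are a score per probe set, between -1.00 and 4.83, made by the authors, with log base, centring and summarization not given in the sources used here. The tests had been planned for log2 values, so the same fit gives differences in score units and no fold changes. From them, 57 control probe sets of 31099 were left out, arrays were quantile normalized, and the dimmest 30% of probe sets by mean were dropped, leaving 21730. Probe sets were named from GEO's platform annotation, with 20826 having 1 gene, 436 several and 9780 none, and symbols updated through RefSeq. A gene stands for its kept probe set of highest mean. The main fit was limma 3.58.1 (R 4.3.3) with 4 group means and an intensity trend, which pools the spread over all arrays, with Benjamini-Hochberg adjustment over the probe sets tested. The code was tested on simulated data. Outside the 9 genes, the text names list genes past the test, or up to 2 of smallest p where none passed, and the 3 genes of highest Pearson's r. The 9 genes, the lists and the motifs were chosen with earlier results of these data known. Each array is 1 rat, so the spread used by the tests holds differences between animals together with those between arrays. The 3 arrays a group limit the precision.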

Additional observations from a re-analysis of the deposited data

How the results depend on the processing

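The differences of Kdr, Tek and S1pr1 from control stayed below 0 with each compound in every alternative run, from -0.69 to -0.26 for Kdr, -0.33 to -0.11 for Tek and -0.82 to -0.33 for S1pr1. How many of the 8 genes passed depended on the setting. For myclobutanil the count of 1 became 0 with no filter on dim probe sets, 0 with the 2 groups alone, 2 with array weights and 0 with the replicate block, and 0 to 1 with 1 array left out. For triadimefon the count of 0 became 2 with the 2 groups alone and 2 with array weights, and 0 to 1 with 1 array left out. For propiconazole the count of 3 became 2 with median centring and 0 to 3 with 1 array left out. For the mean of the 3 compounds the count of 3 became 2 with median centring, 2 on the deposited values and 0 to 3 with 1 array left out. Myclobutanil against propiconazole gave 0 throughout. The F test's count of 1 became 0 with median centring, 0 with no filter, 2 with 50% of probe sets left out, 2 with the mean of a gene's probe sets, 3 with array weights, 2 with no intensity trend and 0 with the replicate block, and 0 to 3 with 1 array left out. Over all probe sets, 395, 311 and 167 passed with myclobutanil, propiconazole and triadimefon, and 30 to 924, 36 to 969 and 6 to 611 with 1 array left out. They were 8, 648 and 621 with the 2 groups alone and 1669, 1313 and 1028 with array weights, whose fit did not reach its convergence tolerance. For these changes the cause was not tested, beyond the fewer arrays or probe sets that a setting leaves.

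Array numbers are shared between groups, and the labels do not say that they pair the samples. Deviations correlated over 0.1 in 3 of 18 same-numbered pairs (range -0.49 to 0.50). Differently numbered pairs were not compared, so this count does not decide whether the numbers pair samples. With the replicate number as a block, 180, 121 and 87 probe sets passed with myclobutanil, propiconazole and triadimefon, 2 of the 8 genes passed with propiconazole (Tek, adjusted p = 0.068 in limma, did not), 0 with myclobutanil (Kdr, adjusted p = 0.0598 in limma), 2 for the mean of the 3 compounds and 0 with triadimefon. The signal of dim probe sets limits what can be said of the third Flt1 and second S1pr1 probe sets. Among the probe sets that stand for a gene, those of Flt1, Tie1 and Pecam1 had mean scores of 0.131, 0.203 and 0.27. Those of Tek, Kdr and S1pr1 had 0.465, 1.30 and 1.90, and those of Stab2 and Lyve1, which did not pass, had 0.952 and 1.67. Whether the level of a gene bears on its call was not tested.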
